A study of Sus scrofa domesticus with 36 samples.

Results

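The positional and lineage homeobox and T-box genes were examined in back muscle and backfat of young pigs. Members were taken by gene symbol alone, as every gene of the HOXA to HOXD clusters and every numbered gene of the TBX, PAX, sine oculis (SIX2, SIX4 and others), PITX, MEOX, LBX, EN, IRX, MEIS and PBX families. Of 81 such symbols in a table of pig gene names, 60 had a row among the 25322 genes counted, 28 of them HOX genes and 32 lineage genes. The other 21 were not analysed here, among them HOXC4, HOXC5, HOXC8, HOXC9, HOXD8, HOXD11, EN2, IRX1, IRX2, IRX5, MEIS1, PAX5, PAX7, PITX1, SIX3, SIX5, TBX1, TBX6 and TBX10. The animals were 18 commercial pigs of a Danbred 600 by Newsham NC32 cross, sampled 3 weeks after weaning. The labels give an age of 16 to 17 days, which is at odds with that time. Each pig gave 1 library of longissimus dorsi, a muscle that runs beside the spine, and 1 of subcutaneous backfat. Pigs are named as in the labels (Sample_731 and so on). None carried an experimental allele or treatment. The pigs came from slower and faster growing classes, but the class of a pig is not in the labels used here, so the groups compared are the 2 tissues. Backfat was cut over the back from the eighth to the last rib, whereas the rib level of the muscle sample is not stated. A difference between tissues and a difference in level along the back therefore cannot be told apart.

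HOX genes encode homeodomain transcription factors that lie in 4 clusters. Within a cluster, low-numbered genes are switched on earlier and farther toward the head, and high-numbered genes later and farther toward the tail, and adult connective tissue and muscle keep part of this pattern. PBX and MEIS proteins bind DNA together with HOX proteins. SIX4, PITX, LBX and PAX factors take part in specifying muscle precursors, MEOX factors pattern the somites, and T-box factors specify limb, heart, mesenchymal and lymphoid lineages.

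Library totals ran from 2990913 to 5373406 gene counts in backfat and from 4716541 to 6216459 in longissimus. Levels are given in counts-per-million (CPM), scaled by trimmed-mean factors. Each log2 difference is backfat minus longissimus, with a standard error (SE) from 18 libraries a tissue. Marker levels followed the labels. The 8 measured muscle fibre markers of 18 listed summed to between 104 and 22810 CPM in backfat and between 66359 and 409944 CPM in longissimus. The 6 measured adipocyte markers of 9 summed to between 1570 and 3208 CPM in backfat and between 325 and 758 CPM in longissimus. No measured marker of either list was at 0 in either tissue. Scaling matters for every direction given here: the median of all genes tested was 0.14 with trimmed-mean factors and 1.5 with library totals alone, so differences are best read relative to it.

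Of the 60 members, 30 passed the filter on low counts, 14 HOX and 16 lineage genes. In edgeR's quasi-likelihood test with Benjamini-Hochberg adjustment over 12542 genes, 18 of these 30 were higher in backfat, where 46.7% of all genes tested were, and 10 were higher in longissimus, where 39.2% were. In either direction 28 of 30 were called, against 85.9% of all genes. At 2-fold or more 17 were higher in backfat (27.3% of all genes) and 6 in longissimus (20.9%). With library totals alone the calls of any size were 24 higher in backfat and 3 in longissimus, against 80.9% and 12.1% of all genes. The filter itself touches these counts, because 15 of the 30 did not reach it in both tissues. HOXB8 reached it in neither tissue taken by itself, with 15 backfat and 3 longissimus libraries over the cut-off. Every backfat library lay above every longissimus library for 7 members (14.8% of all genes tested), and the reverse held for 2 members (17.6%). The members' median log2 difference was 1.10 (quartiles -0.54 and 1.71), against 0.14 (quartiles -0.79 and 1.09) for all genes tested. Bulk libraries cannot tell fewer cells of a type from less RNA per cell, which applies to every level below.

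Among the tested HOX genes, the direction of the difference went in part with paralog number. All 7 tested genes with paralog numbers 1 to 5 were higher in backfat, where 46.7% of all genes tested were. Their log2 differences ran from 0.61 (HOXA3) to 2.44 (HOXA5). Of the 5 tested genes numbered 6 to 8, 2 were higher in backfat and 3 in longissimus. Both tested genes numbered 9 to 13 were higher in longissimus, where 39.2% of all genes tested were. Library totals alone turned 4 of these longissimus-side genes (HOXC6, HOXA7, HOXB8 and HOXD9) to positive values, all of them still below the median gene. The filter can set part of these counts. Of the 7 tested genes numbered 1 to 5, only HOXA5 and HOXD4 reached it in both tissues, and the other 5 reached it in backfat alone. HOXB6 and HOXB7 also reached it in backfat alone, HOXC10 in longissimus alone and HOXB8 in neither. HOXD1, HOXD10 and HOXC13, which did not follow the order, were under the filter and are not in these counts.

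**Figure D1:**
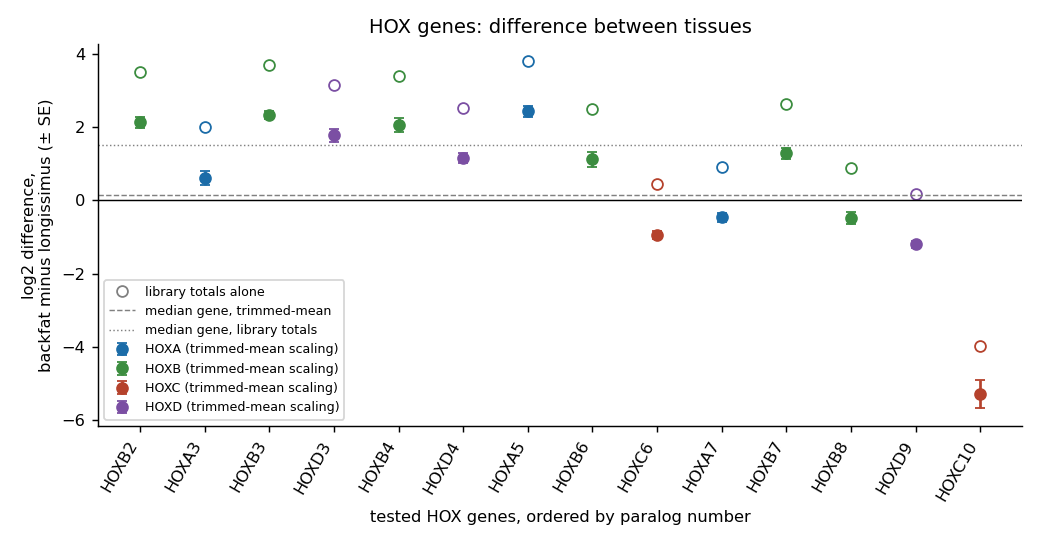
The log2 difference (backfat minus longissimus, filled points with SE) of the 14 tested HOX genes is plotted in order of paralog number and coloured by cluster. Open points give the same difference with library totals alone, under which HOXC6, HOXA7, HOXB8 and HOXD9 turn positive, and dashed and dotted lines mark the median gene at 0.14 and 1.5; the highest value is 2.44 at HOXA5 and the lowest is -5.31 at HOXC10, with no steady fall between them.

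In the HOXA cluster, HOXA5 (ENSSSCG00000016703), which patterns the neck and upper trunk and is active in fat depots, ran from 26.0 to 103 CPM in backfat (median 51.0). In longissimus it ran from 7.67 to 14.6 CPM (median 10.8). The tissues did not overlap, and the difference was 2.44 (SE 0.147, adjusted p = 3.28e-18 by edgeR). HOXA3 (ENSSSCG00000016705) was at 5.71 to 18.2 CPM in backfat (median 9.61) and 2.48 to 13.9 CPM in longissimus (median 5.59). Its tissues overlapped widely, it was higher in backfat in 15 of 18 pigs, and its difference was 0.61 (SE 0.191, adjusted p = 0.00352 by edgeR). HOXA7 (ENSSSCG00000016701), a trunk gene, lay the other way, at 8.67 to 18.7 CPM in backfat (median 12.0) and 9.21 to 26.7 CPM in longissimus (median 17.3). It was higher in longissimus in 14 of 18 pigs, with a difference of -0.46 (SE 0.121, adjusted p = 0.000604), but of 0.91 with library totals alone.

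Of the 6 tested HOXB genes, 5 were higher in backfat and 1 in longissimus, against 46.7% and 39.2% of all genes tested. HOXB3 (ENSSSCG00000017534) ran from 7.90 to 19.4 CPM in backfat (median 14.5) and from 2.09 to 3.98 CPM in longissimus (median 2.6), a difference of 2.34 (SE 0.118, adjusted p = 1.37e-20 by edgeR). HOXB2, a hindbrain and upper trunk gene, ran from 4.86 to 15.8 CPM in backfat (median 10.1) and from 1.25 to 3.67 CPM in longissimus (median 2.11), a difference of 2.14 (SE 0.148). HOXB4 ran from 1.36 to 4.72 CPM in backfat (median 3.12) and from 0 to 1.30 CPM in longissimus (median 0.689), a difference of 2.06 (SE 0.200). For these 3 genes the lowest backfat library lay above the highest longissimus library, as it did for 14.8% of all genes tested. All 3 reached the low-count filter in backfat only. The next genes of the cluster overlapped: HOXB6 differed by 1.13 (SE 0.204, higher in backfat in 17 of 18 pigs) and HOXB7 by 1.29 (SE 0.151, 18 of 18 pigs). HOXB8, the last tested gene of the cluster, ran from 1.03 to 2.79 CPM in backfat (median 1.60) and from 0.747 to 4.37 CPM in longissimus (median 2.30). It was higher in longissimus in 13 of 18 pigs, at -0.48 (SE 0.167, adjusted p = 0.00819 by edgeR), and at 0.89 with library totals alone. None of the 6 tested HOXB genes reached the filter in both tissues.

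In the HOXC cluster both tested genes were higher in longissimus. HOXC10 (ENSSSCG00000022728), known from lumbar levels and the hindlimb, ran from 0 to 1.17 CPM in backfat (median 0.279) and from 3.24 to 36.7 CPM in longissimus (median 10.8). Its summed counts were 45.5 over the 18 backfat libraries and 878 over the 18 longissimus libraries. The tissues did not overlap, and the difference was -5.31 (SE 0.386, adjusted p = 1.39e-15 by edgeR), or -3.99 with library totals alone. Among longissimus libraries HOXC10 spread widely, with pigs Sample_735, Sample_731 and Sample_991 highest (36.7, 32.7 and 30.5 CPM) and pigs Sample_391 and Sample_659 lowest (3.24 and 3.46 CPM). HOXC6 (ENSSSCG00000030585), a thoracic gene, ran from 5.81 to 12.9 CPM in backfat (median 9.42) and from 9.97 to 24.5 CPM in longissimus (median 18.5). It was higher in longissimus in 18 of 18 pigs, at -0.94 (SE 0.110, adjusted p = 3.87e-10 by edgeR), and at 0.45 with library totals alone.

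The 3 tested HOXD genes repeated the change of direction within 1 cluster, whereas HOXD1 and HOXD10, under the filter, did not follow it. HOXD3 ran from 1.94 to 7.87 CPM in backfat (median 4.38) and from 0.384 to 2.19 CPM in longissimus (median 1.29), a difference of 1.78 (SE 0.181). HOXD4 differed by 1.17 (SE 0.130), with medians of 14.5 CPM in backfat and 6.23 CPM in longissimus. HOXD9 (ENSSSCG00000015982), a gene of the lower trunk and limb, ran from 4.44 to 9.03 CPM in backfat (median 6.07) and from 8.63 to 20.0 CPM in longissimus (median 15.2). All 18 pigs had more HOXD9 in longissimus, and the difference was -1.20 (SE 0.101, adjusted p = 6.37e-14 by edgeR), or 0.18 with library totals alone (adjusted p = 0.127). Neighbouring HOX genes have overlapping and antisense transcripts, and the labels do not say that strand was kept, so reads of such neighbours could not be told apart.

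**Figure D2:**
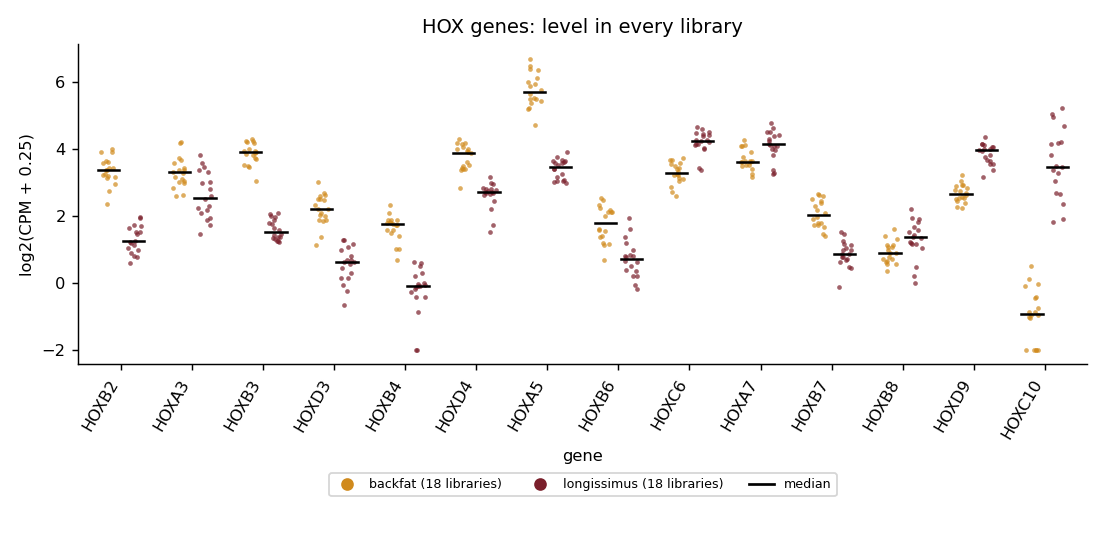
Each point is the log2(CPM + 0.25) of a HOX gene in 1 library (backfat left, longissimus right, 18 libraries each; black bars are medians), in order of paralog number. HOXA5, HOXB2, HOXB3, HOXB4 and HOXC10 show no overlap of the tissues, and the longissimus median rises above the backfat median at HOXC6, HOXA7, HOXB8, HOXD9 and HOXC10, of which only HOXC10 keeps its direction with library totals alone.

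Ratios of HOX genes within a library do not depend on the scaling between tissues. The log2 ratio of HOXA5 to HOXA7 counts (0.5 added to each) lay between 1.22 and 2.89 in backfat (median 2.05) and between -1.39 and -0.11 in longissimus (median -0.72). For HOXD4 over HOXD9 the ranges were 0.30 to 1.71 in backfat and -2.21 to -0.58 in longissimus. For HOXC6 over HOXC10 they were 2.44 to 7.65 and -1.06 to 2.24. In these 3 pairs no library of one tissue reached the range of the other. The ratio of HOXB3 to HOXB8 overlapped (2.15 to 4.03 in backfat, -0.76 to 2.19 in longissimus), though it was higher in the backfat of 18 of 18 pigs. Pairs of equal paralog number from 2 clusters shifted as well. The ratio of HOXB7 to HOXA7 had a median of -1.72 in backfat and -3.38 in longissimus, and that of HOXB6 to HOXC6 a median of -1.43 and -3.59. Both overlapped between tissues and were higher in the backfat of 18 of 18 pigs, so ratios also differed by cluster at the same paralog number. All 6 pairs were chosen after values were seen and are given without a test.

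The 28 HOX genes with a row, of 34 in the name table, were also summed in each library. They held 750 to 1515 counts in backfat and 184 to 526 counts in longissimus. Genes numbered 1 to 5 took 63.6% to 82.1% of HOX counts in backfat (median 73.9%) and 21.5% to 41.0% in longissimus (median 31.2%). Genes numbered 6 to 8 took 14.3% to 27.5% in backfat (median 21.6%) and 32.6% to 45.5% in longissimus (median 38.6%). Genes numbered 9 to 13 took 2.98% to 9.18% in backfat (median 5.25%) and 17.6% to 45.6% in longissimus (median 28.5%). The tissues did not overlap in any of these shares. The closest libraries in the last share were the backfat of pig Sample_77 (9.18%, 95% Wilson interval 7.63% to 11.1%) and the longissimus of pig Sample_391 (17.6%, interval 13.8% to 22.5%), intervals that cover counting error only. Within a pig the share of genes 9 to 13 was 23.7 ± 7.46 percentage points higher in longissimus (SD, n = 18 pigs), and 13.5 ± 4.50 points without HOXC10. HOXA5 weighed less on this share of genes 9 to 13, with 23.9 ± 7.67 points without it. The share of genes 1 to 5 was not taken without HOXA5. That gene held the most backfat counts of any HOX gene (7300.5, and 615 in longissimus).

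**Figure D3:**
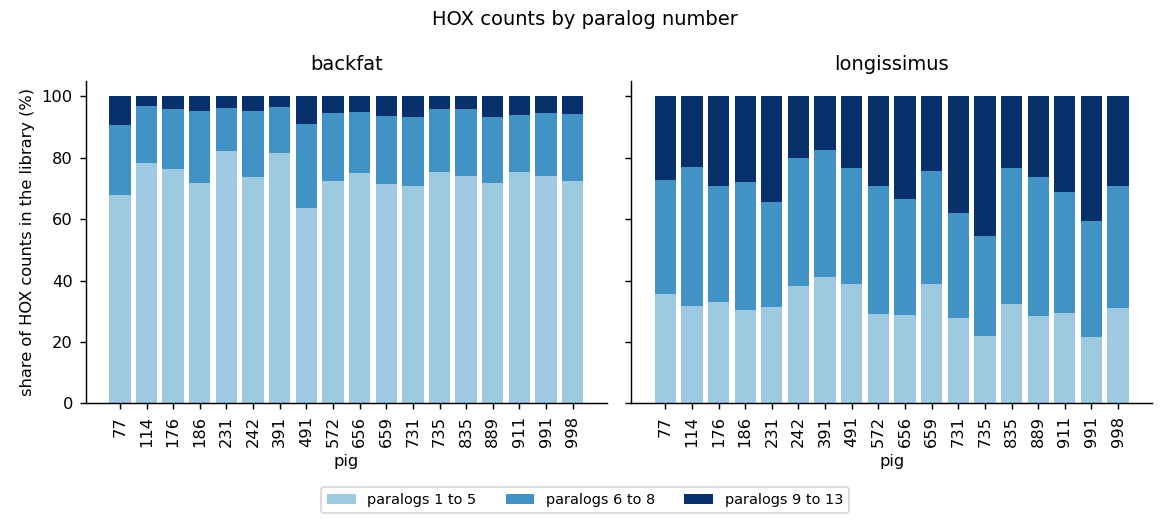
Stacked bars give the share of a library's HOX counts (%) from genes with paralog numbers 1 to 5, 6 to 8 and 9 to 13, for each pig, in backfat (left) and longissimus (right). The lightest segment, genes 1 to 5, is at least 63.6% in every backfat library and at most 41.0% in every longissimus library.

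A further 14 HOX rows were too low for the filter. HOXB1, HOXB13 and HOXD12 had 0 counts in all 36 libraries, and HOXA9 and HOXC11 had at most 2.5 counts in all. No source used here says whether a row covers the whole gene in the annotation that was counted. A fit without the filter, in which 44.9% of 20197 genes were called higher in backfat and 28.7% higher in longissimus, called HOXA2 and HOXB5 higher in backfat. HOXA2 summed to 178.5 counts in backfat and 46.5 in longissimus, and HOXB5 to 84 and 15.5. On the longissimus side that fit called HOXA10 (1 count in backfat, 13.5 in longissimus), HOXA11 (36.5 and 72) and HOXC12 (24 and 57.5). The HOXA10 counts give a ratio of 31.3 (95% counting interval 4.77 to 1325). Not all rows followed the order: HOXD1, the first gene of its cluster, was called higher in longissimus (67.5 and 99 counts), and HOXC13 (90.5 and 6.5) and HOXD10 (36.5 and 6.5) higher in backfat.

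Among the lineage genes, some known from muscle precursors were higher in longissimus. MEOX2, also active in muscle precursors, and EN1, of the dermomyotome, were higher in backfat (1.08 and 1.03). PITX3 (ENSSSCG00000010578), a homeobox gene of differentiating muscle and of the lens, ran from 7.66 to 34.2 CPM in longissimus (median 16.2). In backfat it was at a median of 0 CPM, and 15 of its 28.5 counts there came from pig Sample_731. PITX3 reached the low-count filter in longissimus only. The difference was -6.25 (SE 0.373, adjusted p = 3.69e-18 by edgeR), -7.12 without pig Sample_731 and -7.96 without pigs Sample_731, Sample_391, Sample_176 and Sample_911. LBX1, which marks migrating muscle precursors, was too low for the filter but had 3 to 13.5 counts in each longissimus library and at most 1 count in any backfat library. Its summed counts of 146 and 2.5 give a ratio of 109 (95% counting interval 36.5 to 534, counts rounded to whole numbers), the tissues did not overlap, and the fit without the filter called it (adjusted p = 1.34e-22 by edgeR). PAX3, of the earliest muscle precursors, had 19.5 counts in longissimus and 10 in backfat.

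SIX4 and SIX2, of a family that can switch on myogenic factors together with EYA partners, differed by smaller amounts than PITX3. SIX4 (ENSSSCG00000005089) ran from 1.18 to 13.7 CPM in backfat (median 4.27) and from 6.97 to 29.9 CPM in longissimus (median 16.5), a difference of -2.01 (SE 0.208, adjusted p = 2.26e-11 by edgeR). SIX2, a gene of mesenchyme and tendon, ran from 2.51 to 15.9 CPM in backfat (median 4.35) and from 8.05 to 32.6 CPM in longissimus (median 14.2), a difference of -1.40 (SE 0.236, adjusted p = 1.08e-06). Both were higher in longissimus in 18 of 18 pigs although their ranges overlapped. With library totals alone SIX4 was still called (-0.68, adjusted p = 0.00308), while SIX2 (-0.10, adjusted p = 0.722) was not. SIX6 had 34 counts in backfat and 22.5 in longissimus.

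Muscle RNA varied among the backfat libraries. The muscle fibre markers of the backfat library of pig Sample_991 stood at 0.0467% of the longissimus mean, the lowest of all, and those of pig Sample_731 at 10.2%, the highest. PITX3 followed a like order at these ends, at 0% of its longissimus mean in pig Sample_991 and 12.7% in pig Sample_731. SIX4 was at 25.1% in pig Sample_991 and 34.9% in pig Sample_731, SIX2 at 18.9% and 44.9%, and HOXD9 at 41.2% and 37.7%. In pig Sample_391, with the next most muscle fibre RNA (4.67%), SIX4 stood at 77.5% and SIX2 at 100.4%, and PITX3 at 3.94%. SIX2 was highest in pig Sample_735 (101.3%), whose muscle fibre markers stood at 0.519%. It was at 70.9% in pig Sample_835, where those markers stood at 0.0542%. HOXC10 was at 1.68% in pig Sample_991 and 7.97% in pig Sample_731. Over the 18 backfat libraries, Spearman's rho between a gene and the summed muscle fibre markers was tested by two-sided permutation for 12594 genes. Of 29 members, 0 passed after Benjamini-Hochberg adjustment, where 0.961% of all genes passed with a positive and 0.0476% with a negative rho. At an unadjusted p under 0.05 there were 2 members, TBX3 (rho 0.595, permutation p = 0.0102, adjusted p = 0.286; Pearson r 0.514, adjusted p = 0.337, and 0.322 without 2 pigs) and TBX2 (rho 0.474, permutation p = 0.0492, adjusted p = 0.421; r 0.381, adjusted p = 0.496, and 0.438 without 2 pigs). Pearson's r also gave 0 calls, with TBX3 (permutation p = 0.0293) and TBX21 at an unadjusted p under 0.05. For TBX21 r was -0.499 (permutation p = 0.0348, adjusted p = 0.353, and -0.429 without 2 pigs) and rho -0.424 (permutation p = 0.0819, adjusted p = 0.475). PITX3 and HOXC10 were too low in backfat to enter this test. For SIX4 rho was 0.170 (permutation p = 0.496, adjusted p = 0.805; r 0.384, adjusted p = 0.490, and 0.382 without 2 pigs). For SIX2 rho was 0.106 (permutation p = 0.673, adjusted p = 0.891), and r was 0.216 (adjusted p = 0.735, and 0.0956 without 2 pigs).

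**Figure D4:**
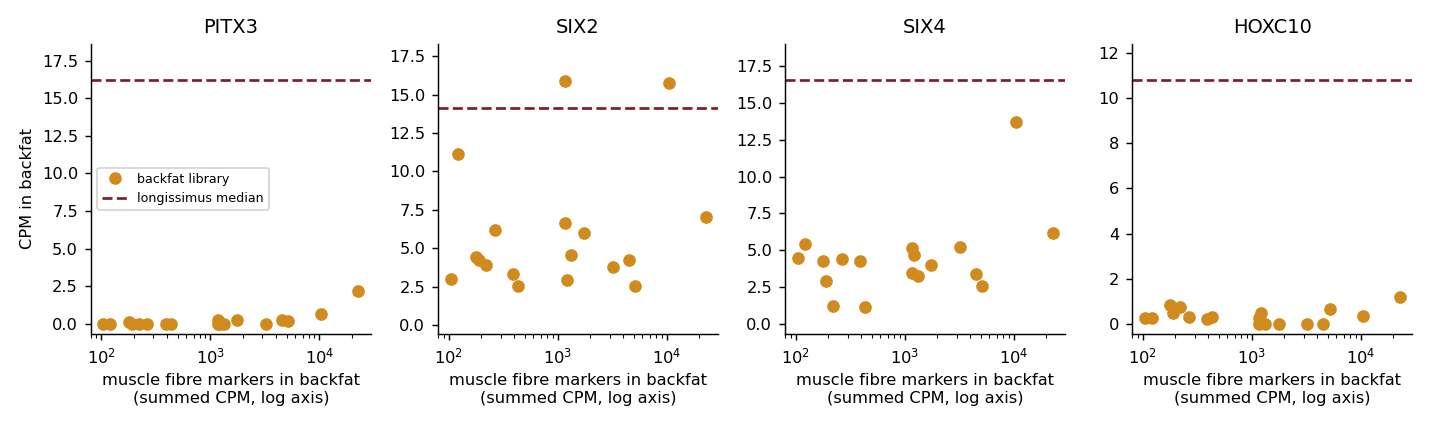
Each point is 1 backfat library, with the summed CPM of the muscle fibre markers on a log axis and the CPM of PITX3, SIX2, SIX4 or HOXC10 on the vertical axis. The dashed line is the longissimus median: the highest PITX3 value, 2.20 CPM, belongs to the library with the most muscle RNA, and the highest SIX4 values, 13.7 and 6.17 CPM, to the 2 libraries with the most. The highest SIX2 value, 15.9 CPM, belongs to pig Sample_735, where the markers summed to 1161 CPM.

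All 5 tested T-box genes were higher in backfat, where 46.7% of all genes tested were. With library totals alone all 5 were again called higher there, against 80.9% of all genes. TBX5 and TBX21 reached the low-count filter in backfat only. TBX5 (ENSSSCG00000009867), which specifies the forelimb and heart, ran from 1.74 to 5.31 CPM in backfat (median 2.58), 11 to 43 counts a library. In longissimus it was at 0 in 17 of 18 libraries, and the exception was pig Sample_889 with 1.5 counts. The summed counts, rounded to whole numbers, give a ratio of 87.3 (95% counting interval 24.0 to 724). Its fitted difference, which depends on how zeros are handled, was 5.70 (SE 0.372, adjusted p = 3.89e-17 by edgeR) and 7.01 without pig Sample_889. TBX4, the hindlimb counterpart of TBX5, had 15 counts in backfat and 1.5 in longissimus.

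TBX18 (ENSSSCG00000004290), a gene of pericytes and other mural cells, ran from 14.7 to 51.3 CPM in backfat (median 25.8) and from 2.96 to 10.4 CPM in longissimus (median 4.92), a difference of 2.45 (SE 0.164, adjusted p = 9.06e-17 by edgeR). TBX2 and TBX3, related repressors of mesenchyme and limb, differed by 1.47 (SE 0.128) and 1.47 (SE 0.176). TBX2 showed no overlap (14.1 to 38.8 CPM in backfat, 5.41 to 12.6 CPM in longissimus), whereas TBX3 overlapped and was higher in backfat in 17 of 18 pigs. Smooth muscle and pericyte markers (6 of 7 measured, none at 0) summed to 380 to 1368 CPM in backfat and 175.6 to 942 CPM in longissimus. Of these, PDGFRB (1.63), TAGLN (1.39), MYH11 (3.66) and NOTCH3 (0.28) were higher in backfat and CNN1 (-2.21) in longissimus, while ACTA2 (-0.19) did not pass, or was at 1.27 with library totals alone. Their part in the TBX18 result was not tested. TBX21, the factor of type 1 helper and natural killer cells, ran from 1.37 to 15.7 CPM in backfat (median 6.51) and from 0.648 to 6.82 CPM in longissimus (median 2.72). Its difference was 1.32 (SE 0.267, adjusted p = 2.24e-05 by edgeR), and T and natural killer cell markers (4 of 8 measured, none at 0) summed to 34.8 to 201 CPM in backfat and 5.12 to 64.8 CPM in longissimus. The part of lymphoid cell number in the TBX21 result was not tested.

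**Figure D5:**
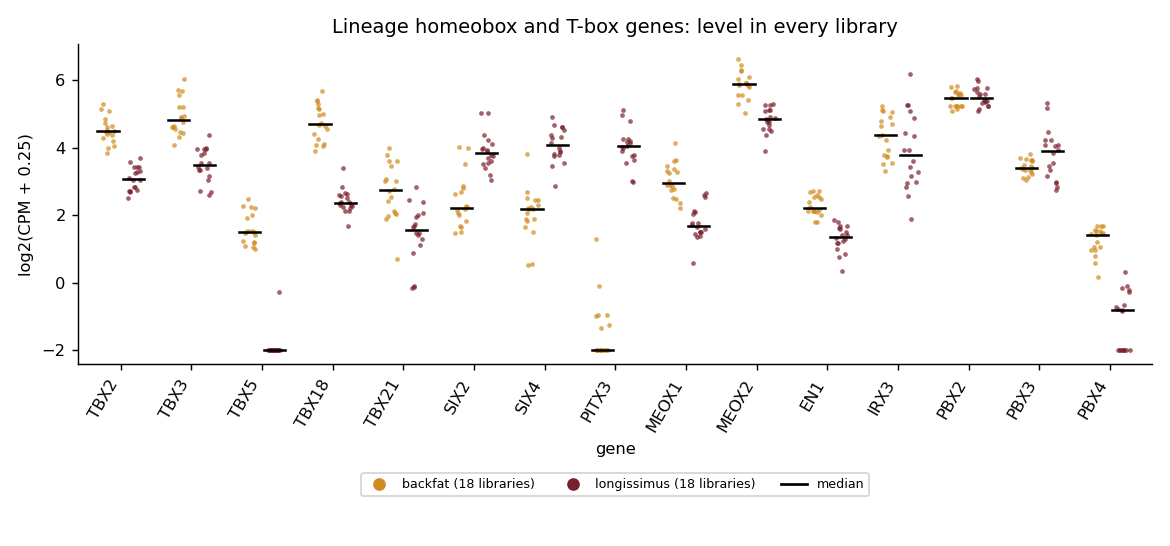
Each point is the log2(CPM + 0.25) of a lineage gene in 1 library (backfat left, longissimus right, 18 libraries each; black bars are medians). TBX2, TBX5, TBX18 and PITX3 show no overlap, SIX2 and SIX4 are higher in longissimus (with library totals alone SIX2 is not called), and IRX3 and PBX2 overlap throughout.

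MEOX1, MEOX2 and EN1 were higher in backfat, where 46.7% of all genes tested were. They were also called higher there with library totals alone, against 80.9% of all genes. MEOX1 and EN1 reached the low-count filter in backfat only. MEOX2 (ENSSSCG00000015357), active in muscle precursors and vessel walls, ran from 32.2 to 99.9 CPM in backfat (median 58.9) and from 14.8 to 39.3 CPM in longissimus (median 28.5), a difference of 1.08 (SE 0.125). MEOX1 differed by 1.35 (SE 0.178), with medians of 7.51 CPM in backfat and 2.95 CPM in longissimus. EN1, which marks the central dermomyotome that forms back dermis and muscle, differed by 1.03 (SE 0.125), with medians of 4.35 and 2.33 CPM. Each of these 3 genes was higher in backfat in 17 of 18 pigs, with edgeR adjusted p of 3.48e-10, 7.83e-09 and 1.15e-09. No PAX gene reached the filter. PAX1, of the sclerotome, summed to 94 counts in backfat and 8.5 in longissimus, with 0.5 to 19.5 counts in a backfat library, and the fit without the filter called it higher in backfat (2.57, SE 0.666, adjusted p = 0.000715). PAX9, its close relative, summed to 106 and 57 counts and was not called (adjusted p = 0.604). PAX2 and PAX4 had 0 counts, and PAX6 had 1.5 in backfat and 0.5 in longissimus.

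The IRX genes were uneven. IRX3 (ENSSSCG00000002831), which in fat precursors is linked to obesity variants, did not pass the test, at 0.12 (SE 0.291, adjusted p = 0.702 by edgeR). It ran from 9.67 to 37.2 CPM in backfat (median 20.4) and from 3.45 to 73.1 CPM in longissimus (median 13.5), where pig Sample_572 was highest and pig Sample_889 lowest. With library totals alone IRX3 was called at 1.39 (adjusted p = 0.000301 by edgeR), below the median gene at 1.5. IRX4, best known from the heart ventricle, and its relative IRX6 had most of their counts in backfat. IRX4 summed to 455 counts in backfat (6.5 to 79.5 a library) and 7 in longissimus, and IRX6 to 161.5 (1 to 24 a library) and 7.5. Without the filter their differences were 5.0 (SE 0.503) and 3.13 (SE 0.489). Backfat pigs Sample_659 and Sample_491 had the most IRX4 (79.5 and 54.5 counts) and also the highest summed keratinocyte markers (219 and 247 CPM), while pig Sample_231 had the least of both (6.5 counts and 22.0 CPM). Most of that sum came from 1 gene, DSP. Without DSP the sums were 30.8 CPM in pig Sample_659, 23.1 in Sample_491 and 5.95 in Sample_231, above 4.2 in Sample_991 and 5.33 in Sample_572. The orders differed between these ends. Pig Sample_186 ranked 3 for IRX4 (45 counts) and 7 for the full marker sum (89.1 CPM, or 6.66 CPM without DSP). Pig Sample_572 ranked 8 for IRX4 and 17 for the full marker sum. HOXC13, a hair follicle gene, had its highest backfat counts in pigs Sample_889, Sample_77 and Sample_998 (20, 19 and 16). Keratinocyte markers there summed to 159, 157 and 183 CPM, or 13.3, 22.1 and 19.1 CPM without DSP. Pigs Sample_491 and Sample_659, with the highest sums, had 9 and 8.5 HOXC13 counts. Keratinocyte markers (5 of 8 measured, DSG1 at 0 in longissimus) summed to 22.0 to 247 CPM in backfat and 95.9 to 184 CPM in longissimus. Of the 3 tested, TP63 was higher in longissimus (-3.85, SE 0.360), while DSP (-0.59) and KRT10 (-0.01) did not pass. The part of keratinocyte markers in these results was not tested.

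The PBX genes, partners of HOX proteins, were uneven. PBX2 (ENSSSCG00000001438) did not pass the test, with medians of 44.1 CPM in both tissues and a difference of -0.08 (SE 0.0863, adjusted p = 0.406 by edgeR), or 1.29 with library totals alone, below the median gene. PBX3 differed by -0.56 (SE 0.182, adjusted p = 0.00491), and by 0.86 with library totals alone. Its longissimus range of 6.41 to 39.7 CPM, with pigs Sample_731 and Sample_991 highest, enclosed its backfat range of 7.95 to 13.9 CPM. PBX4, which reached the low-count filter in backfat only, differed by 2.76 (SE 0.291), at 0.881 to 2.97 CPM in backfat and 0 to 0.996 CPM in longissimus. MEIS2 had 4.5 counts in backfat and 0.5 in longissimus.

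Members varied more between pigs than the typical gene in these libraries. The median SD of log2 CPM over 18 pigs was 0.428 for tested members and 0.317 for all genes in backfat, and 0.461 and 0.370 in longissimus, with no allowance for the members' count levels. Whether a pig with a high level in one tissue was high in the other was tested by Spearman's rho over 18 pigs with two-sided permutation for 11109 genes, of which 0.603% passed with a positive and 0% with a negative rho. Of 23 members tested, 1 passed. For TBX21 rho was 0.808 (permutation p = 0.00011, adjusted p = 0.0313). Pearson's r was 0.764 by the same permutation (adjusted p = 0.0235) and fell to 0.655 once the 2 most extreme pigs were left out. It lost the call with the muscle fibre level of backfat removed (rho 0.649, adjusted p = 0.174), with library totals removed (0.779, adjusted p = 0.0543) and without pigs Sample_656, Sample_572 and Sample_735 (0.804, adjusted p = 0.0814). No HOX gene passed: the highest rho among them was that of HOXC6 (0.426, permutation p = 0.0793, adjusted p = 0.414; r 0.390, adjusted p = 0.463, and 0.627 without 2 pigs), and the lowest that of HOXA5 (-0.269, permutation p = 0.277, adjusted p = 0.655; r -0.225, adjusted p = 0.725, and -0.326 without 2 pigs). The median rho was 0.108 over the 23 members and 0.185 over all genes.

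Regulators and partners of these families were read from fixed lists, by counts beside 46.7% and 39.2% of all genes on the backfat and longissimus sides. Of 13 tested polycomb genes, which keep HOX clusters silent, 8 were higher in backfat, 2 in longissimus and 3 did not pass. The methylase EZH1 (0.92, SE 0.141) and RING1 (0.26, SE 0.0608) were on the backfat side, BMI1 on the longissimus side (-1.24, SE 0.108, but 0.11 with library totals alone), and PHC2 was at 0.11 (SE 0.0669, adjusted p = 0.132 by edgeR). The list median was 0.37. Of 9 trithorax genes, which keep HOX clusters active, 1 was higher in backfat, 3 in longissimus and 5 did not pass (median -0.13). KMT2A, the methylase best known from HOX activation, was at 0.37 (SE 0.139), and WDR5, a subunit of the same complexes, at -0.87 (SE 0.0771, but 0.49 with library totals alone). KMT2B (-0.12, adjusted p = 0.251 by edgeR) and KDM6A (0.07, adjusted p = 0.218) did not pass. Of 8 retinoid and tail signal genes, 4 were higher in backfat, including FGFR1 (1.74, SE 0.0892) and the receptors RARG (1.07, SE 0.109) and RARA (0.91, SE 0.0925). RXRB was higher in longissimus (-0.58, SE 0.0748, but 0.79 with library totals alone) and 3 did not pass (median 0.59). With library totals alone the medians of these 3 lists were 1.75, 1.22 and 1.98, against 1.5 for all genes.

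Of 13 other position and lineage factors of mesenchyme, 11 were higher in backfat, 1 in longissimus and 1 did not pass (median 1.82). EBF3 was at 1.92 (SE 0.0945), SFRP2 at 0.91 (SE 0.248), GPC4 at 0.48 (SE 0.111) and NR2F2 at 0.31 (SE 0.107). PRRX2, a limb and connective tissue homeobox gene, was at 3.14 (SE 0.158), while ZIC1, of the dorsal somite, was at -0.68 (SE 0.293, adjusted p = 0.0306 by edgeR), or 0.69 with library totals alone. Fibroblast and progenitor markers (7 of 9 measured, none at 0) were also higher in backfat in 7 of 7 cases, summing to 12264 to 53944 CPM there and 1451 to 8998 CPM in longissimus, and their part in the HOX and T-box results was not tested. All 6 tested myogenic factors were higher in longissimus, among them MYF6 (-6.07, SE 0.488), MYOD1 (-5.95, SE 0.437), MEF2C (-3.34, SE 0.155), MEF2D (-1.84, SE 0.0980) and MEF2A (-1.77, SE 0.0909), with a list median of -4.63. Satellite cell markers (6 of 6 measured, none at 0) summed to 17.8 to 1635 CPM in backfat and 8167 to 26777 CPM in longissimus. Of 3 genes that act with SIX4 and its relatives, EYA3 (-0.15, SE 0.0729) and EYA2 (0.05, SE 0.257) did not pass and DACH1 was higher in longissimus (-0.56, SE 0.200, but 0.80 with library totals alone). TGIF1, a relative of the PBX and MEIS genes, was at 0.68 (SE 0.131), and MGA, a T-box gene outside the TBX series, at 0.44 (SE 0.184).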

How the data were processed

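RNA was sequenced from backfat and longissimus of 18 pigs. The authors deposited 1 table of expected counts per Ensembl gene, not normalised, in steps of 0.5. Per the submitters' processing notes GSNAP and HTSeq were used. Tool versions, the annotation and the genome build, not given in the sources used here, remain unknown. In each library, the 5 lines that name no gene were left out; no_feature counts made up 28.2% to 53.8% of a backfat and 16.1% to 34.1% of a longissimus library. Counts were rounded to whole numbers. Symbols were found for 11804 of 25322 genes in a table of current names.

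Tissue and pig number came from sample titles. The breed field of the labels rises by sample from NC32 to NC71, and the protocol's NC32 was used; an age field of 16 to 17 days and the stage weaning are at odds with sampling 3 weeks after weaning. Tissues were compared by quasi-likelihood (edgeR 4.0.16, R 4.3.3; robust, tissue alone, trimmed-mean factors, default low-count filter of 10 counts), with Benjamini-Hochberg adjustment over 12542 genes at 0.05; the SE is the log2 difference over the square root of F. Correlations used log2 CPM (prior count 2) of genes reaching 1 CPM in 15 or more of 18 libraries and 100000 permutations (NumPy 2.4.6, SciPy 1.17.1). Alternatives were other scalings, filters, rounding, DESeq2 1.42.0, a pig block, and pigs left out. Libraries of 1 number come from 1 pig; deviations from tissue means correlated at 0.236 within a pig on average (0.0973 to 0.359) and at -0.0138 between pigs. Both tests were tried on simulated data.

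Members, lists and tests were chosen with earlier results of these data known. Values are described in full, by rule, for the 3 called members with the largest and the 1 with the smallest difference in each family; untested members are given by counts, and lists by their most abundant genes, with MYOD1, PRRX2 and ZIC1 chosen after their values were seen. Intervals cover counting error only. No sequence was used. A few members are not reported here by name, though counts over all members include them.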

Additional observations from a re-analysis of the deposited data

How the results depend on the processing

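Of 27 named tissue differences, all 27 kept direction and side of the threshold with DESeq2's size factors, DESeq2's test, doubled counts, both other filters, the pig block and each pig left out. Without the low-count filter 28 members were higher in backfat and 16 in longissimus, of which 14 and 9 were HOX genes, because 54 rather than 30 were tested. With library totals alone 3 members, 1 of them a HOX gene, were higher in longissimus, and HOXA7 (0.91), HOXB8 (0.89), HOXC6 (0.45), HOXD9 (0.18), PBX2 (1.29) and PBX3 (0.86) reversed. IRX3 was at -0.050 without pigs Sample_731, Sample_391, Sample_176 and Sample_911. With the pig number as a replicate block 18 members were higher in backfat and 10 in longissimus, and the block changed no call of a tested member. Leaving out 1 pig gave 18 to 19 and 10 to 10, and 9 to 9 and 5 to 5 for HOX genes. The count of members correlated between tissues was 0 with the muscle fibre level removed, 0 with library totals removed and 0 without pigs Sample_656, Sample_572 and Sample_735; the cause was not tested. The count for muscle fibre level stayed at 0. The share of HOX genes 9 to 13 without HOXA5, HOXC10 or 4 pigs was added after seeing the data. Rows of few counts limit what can be said of members under the filter.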

Other observations

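In longissimus the tested members with the widest spread between pigs were IRX3 (SD of log2 CPM 1.12), HOXC10 (1.03), TBX21 (0.814) and PBX3 (0.741). In backfat they were TBX21 (0.813), SIX2 (0.768), PITX3 (0.727) and SIX4 (0.714). The medians over all genes were 0.370 and 0.317. PITX3 had a backfat median of 0 CPM and a highest value of 2.20 CPM. Members under the filter were not ranked, among them IRX4, with 6.5 to 79.5 counts in backfat. HOXC10 and PBX3 shared 2 of their highest longissimus libraries, those of pigs Sample_731 (32.7 and 39.7 CPM) and Sample_991 (30.5 and 36.2 CPM), while pig Sample_735 had the highest HOXC10 (36.7 CPM) and the lowest PBX3 (6.41 CPM). HOXA5 in backfat was highest in pig Sample_391 (103 CPM) and lowest in pig Sample_491 (26.0 CPM), and HOXA3 followed the same order at these ends (18.2 and 5.71 CPM). The growth class of these pigs is not in the labels used here, so these values were not set against growth.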
